A study of Mus musculus with 18 samples.

Results

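Cytochrome P450 genes were followed through 18 RNA-seq libraries of mouse colon. Members were all genes of the deposited table whose symbol had the form Cyp, a family number, subfamily letters and a gene number, and whose listed transcript types included protein coding. The pattern matched 79 names. Of these, 4 had no protein-coding transcript type (Cyp27b1, Cyp2g1, Cyp2a22 and Cyp2d13), which left 75 members among 35405 genes. For 40 members protein coding was the only type listed, and 35 had further types. The libraries fell into 3 groups of 6. The labels call the reference group vector and do not say what it was given. The second group received TNBS (trinitrobenzenesulfonic acid), a hapten that provokes colitis when given into the colon. The labels of the third group read IBC, for isobavachalcone, a plant chalcone, and do not say whether these animals also received TNBS. Strain, age, dose and time were not given in the labels used here. RNA was selected on poly(A) tails, and the libraries sampled whole colon tissue, in which fewer cells of a type cannot be told apart from less RNA per cell. The labels do not state that each library came from its own animal, so the p-values measure only the spread between these libraries.

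Cytochrome P450s are heme enzymes that insert 1 oxygen atom into a lipid, steroid, vitamin or foreign compound. Most sit in the endoplasmic reticulum and take electrons from the reductase encoded by Por, while the mitochondrial enzymes take them from the ferredoxin encoded by Fdx1. In the gut the families that handle drugs and arachidonic acid are made mainly by epithelial cells, and several are switched on by ligand-activated factors such as the aryl hydrocarbon receptor and the pregnane X receptor.

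Total counts per library ran from 55669263 to 78874868. The libraries separated sharply by Hoxb13, a homeobox gene of the distal colon. In 6 libraries (vector 3 and 4, TNBS 2 and 3, IBC 2 and 5) Hoxb13 stood at 0 to 0.601 FPKM (fragments scaled by transcript length and library size), and in the other 12 at 54.2 to 199 FPKM. Hoxb6 went the other way, at 7.35 to 41.6 FPKM in the 6 and 0.487 to 1.34 FPKM in the 12. Each group held 2 libraries low in Hoxb13 and 4 high in it, so this split crosses the groups evenly. These sets were defined from the data and are not groups of the study. All 10 colonocyte markers examined were detected, and their summed FPKM was 4170 to 11700 in the low set and 1520 to 3660 in the high set. Vector 6 also carried pancreatic acinar transcripts at a summed 16400 FPKM, against 5.94 to 131 in the other libraries. Vector 3 had 18% of its counts on mitochondrial genes, against 4.48 to 9.20% in the other libraries.

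The P450 transcripts of these colons came from a few genes. By mean FPKM over all libraries, 15 members stood at 10 or more, 15 between 1 and 10, 13 between 0.1 and 1, and 32 under 0.1. In single libraries 22 to 31 members (median 27) exceeded 1 FPKM, and the 5 highest members gave 49.5 to 86.3% of the summed P450 FPKM. By role, the Cyp2c genes, which oxidise arachidonic acid and drugs, led with a summed mean of 484 FPKM over 10 members. The 8 Cyp2d genes followed with 111 FPKM, and the 13 fatty acid hydroxylases of family 4 with 89.8 FPKM. The 5 steroid hormone genes summed to 1.01 FPKM, the 3 family 1 genes to 0.31 FPKM and the 3 retinoic acid genes to 0.273 FPKM. The filter on low counts kept 49 members for testing. Of the 26 left out, 14 had a value above 0 in 3 libraries or fewer, and the highest single value was 1.35 FPKM, for Cyp3a25.

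Cyp2c55, an arachidonic acid hydroxylase of the mouse colon, had the highest mean FPKM of all members. It was the top member in all but TNBS 1, where Cyp2c68 led, and TNBS 5, IBC 3 and IBC 6, where Cyp2d34 led. Cyp2d34, of the subfamily that holds human CYP2D6, averaged 64.4 FPKM and was far steadier, at 23.1 to 146 FPKM in the vector group, 31.7 to 74.2 with TNBS and 43.4 to 104 with IBC. Next by this mean, which pools the Hoxb13 sets, came Cyp2c65 (39.9 FPKM, but a median of 2.15 FPKM in the 12 libraries high in Hoxb13), the leukotriene hydroxylase gene Cyp4f14 (37.3 FPKM), Cyp2c68 (32.4 FPKM) and Cyp2e1 (27.5 FPKM), which oxidises ethanol and is known from liver and fat. Cyp4f40 (19.1 FPKM), the epoxygenase gene Cyp2j6 (15.5 FPKM), Cyp2d26 (15.4 FPKM), Cyp4f16 (14.3 FPKM), Cyp2f2 (13.3 FPKM), known from airway club cells, and Cyp2d10 (12.7 FPKM) completed the 12 most abundant members.

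**Figure D1:**
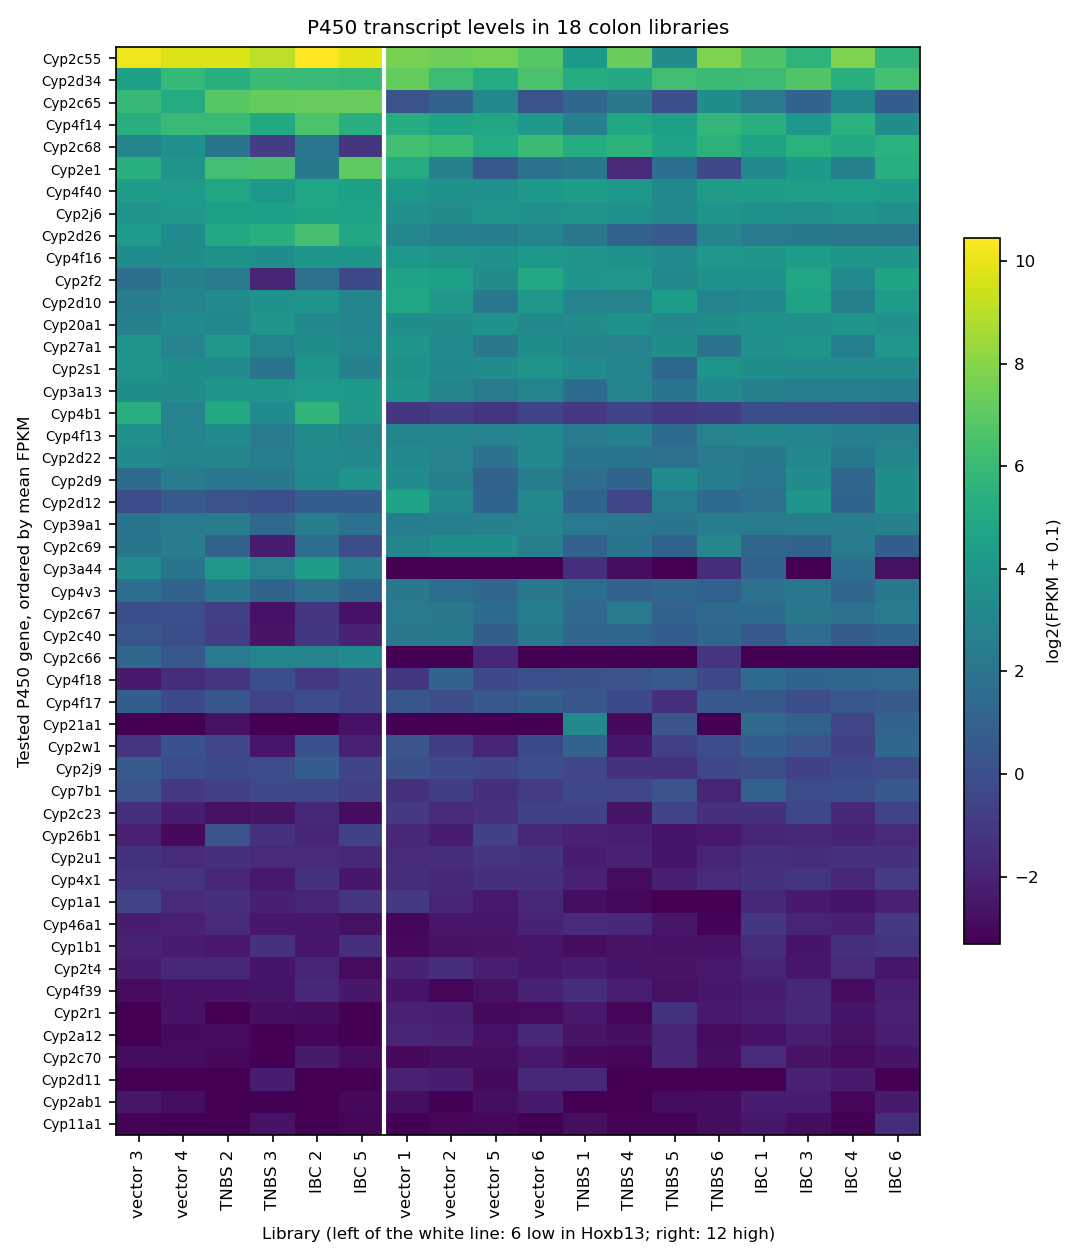
Level of the 49 tested members (rows) in the 18 libraries (columns), as log2(FPKM + 0.1), with the 6 libraries low in Hoxb13 to the left of the white line. Cyp2c65, Cyp4b1 and Cyp3a44 are high to the left of the line and Cyp2c68 and Cyp2f2 to its right, each without overlap between the sets.

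The total P450 level differed between the Hoxb13 sets without overlap. Summed over the members it was 1070 to 2080 FPKM (median 1460) in the low set and 260 to 747 FPKM (median 454) in the high set. By group the medians were 638 FPKM (range 441 to 1500) for vector, 488 FPKM (260 to 1430) for TNBS and 490 FPKM (426 to 2080) for IBC, and these ranges overlapped widely. Cyp2c55 alone gave 49.9 to 73.7% of the sum in the low set and 3.99 to 43.6% in the high set.

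**Figure D2:**
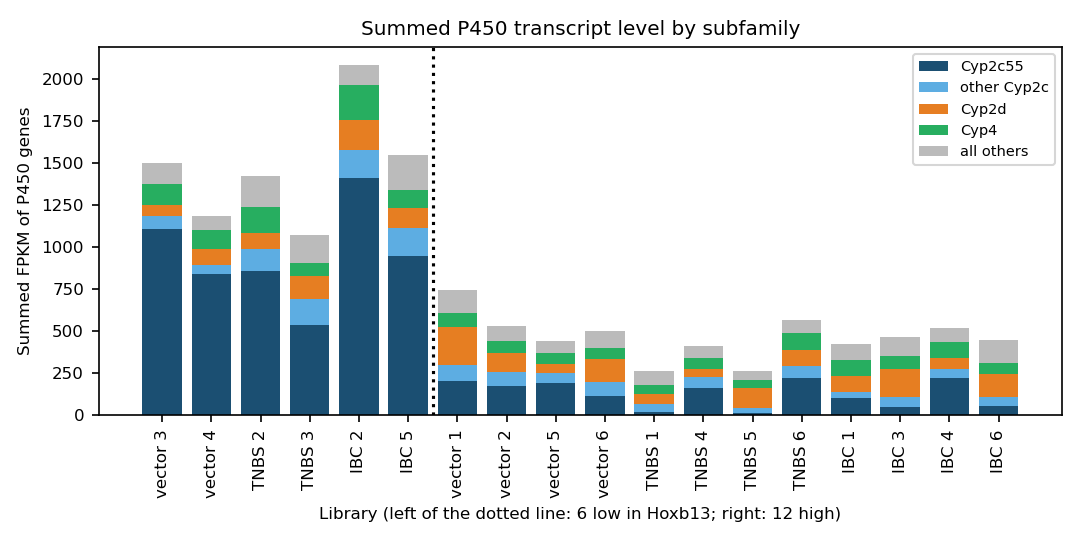
Summed FPKM of the members in each library, stacked as Cyp2c55, the other Cyp2c genes, Cyp2d, family 4 and all others. The 6 libraries low in Hoxb13 reach 1070 FPKM or more and the 12 high ones stay at 747 FPKM or less, mostly through the Cyp2c55 segment.

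Within the Cyp2c cluster of chromosome 19, neighbouring genes took opposite sides of the split. In the deposited table, which names no genome build, Cyp2c55 (38995463 to 39031137), Cyp2c65 (39049459 to 39082388) and Cyp2c66 (39102342 to 39175516) lie in a row on the plus strand. Further along lie Cyp2c67 (39597286 to 39637495), Cyp2c68 (39677278 to 39729498), Cyp2c40 (39755515 to 39801258) and Cyp2c69 (39831258 to 39875243), all on the minus strand. The first 3 were higher in the libraries low in Hoxb13, and Cyp2c67, Cyp2c68 and Cyp2c40 were higher in those high in it. The 250 bases before the start site of each of these 7 genes are shown because the genes of the cluster part in this way. They come from RefSeq (GRCm38.p6, a build whose positions differ from those of the table), read 5′ to 3′ on the strand of the gene. Capitals mark CAAAGNNCA, the core of the direct repeat that HNF4, a nuclear receptor of gut and liver epithelium, binds, and TATAAA, both searched on either strand.
Cyp2c55 (chr19:39006769-39007018, plus strand): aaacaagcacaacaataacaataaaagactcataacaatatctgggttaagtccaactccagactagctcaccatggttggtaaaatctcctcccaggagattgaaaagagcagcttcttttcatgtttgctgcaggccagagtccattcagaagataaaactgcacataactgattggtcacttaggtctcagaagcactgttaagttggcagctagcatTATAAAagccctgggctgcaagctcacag
Cyp2c65 (chr19:39060756-39061005, plus strand): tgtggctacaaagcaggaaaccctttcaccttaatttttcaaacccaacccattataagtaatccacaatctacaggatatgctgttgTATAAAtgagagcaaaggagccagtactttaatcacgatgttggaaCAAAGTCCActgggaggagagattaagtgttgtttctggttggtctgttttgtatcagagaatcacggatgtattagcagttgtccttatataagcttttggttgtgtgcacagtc
Cyp2c66 (chr19:39113648-39113897, plus strand): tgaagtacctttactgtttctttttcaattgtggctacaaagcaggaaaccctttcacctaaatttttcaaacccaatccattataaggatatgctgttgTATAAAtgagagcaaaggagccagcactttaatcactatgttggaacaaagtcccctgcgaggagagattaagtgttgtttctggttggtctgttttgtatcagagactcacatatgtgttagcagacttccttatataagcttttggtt
Cyp2c67 (chr19:39649043-39649292, minus strand): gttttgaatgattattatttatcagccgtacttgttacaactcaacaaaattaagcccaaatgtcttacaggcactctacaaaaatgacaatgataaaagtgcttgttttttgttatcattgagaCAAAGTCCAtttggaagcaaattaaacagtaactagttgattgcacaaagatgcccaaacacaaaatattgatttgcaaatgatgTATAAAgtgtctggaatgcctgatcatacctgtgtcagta
Cyp2c68 (chr19:39741102-39741351, minus strand): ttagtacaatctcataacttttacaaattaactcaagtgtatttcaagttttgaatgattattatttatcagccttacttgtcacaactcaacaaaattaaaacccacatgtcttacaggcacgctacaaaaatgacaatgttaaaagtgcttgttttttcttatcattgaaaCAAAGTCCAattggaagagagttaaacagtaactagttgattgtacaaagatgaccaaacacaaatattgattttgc
Cyp2c40 (chr19:39812815-39813064, minus strand): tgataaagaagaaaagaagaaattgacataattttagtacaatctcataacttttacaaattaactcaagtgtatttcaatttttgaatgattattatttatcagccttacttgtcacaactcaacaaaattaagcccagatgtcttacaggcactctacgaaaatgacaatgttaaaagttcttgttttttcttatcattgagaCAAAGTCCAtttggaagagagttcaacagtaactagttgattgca
Cyp2c69 (chr19:39886770-39887019, minus strand): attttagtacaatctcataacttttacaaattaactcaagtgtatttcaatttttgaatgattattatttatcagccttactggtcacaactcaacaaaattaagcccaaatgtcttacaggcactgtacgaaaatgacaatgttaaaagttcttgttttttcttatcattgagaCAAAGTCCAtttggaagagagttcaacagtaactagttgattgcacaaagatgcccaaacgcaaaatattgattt

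Apart from Cyp2c55, genes on the same strand had the more alike windows. Cyp2c65 and Cyp2c66 had the same base after alignment at 83.2% of the window length, Cyp2c68 and Cyp2c69 at 92.8%, Cyp2c40 and Cyp2c69 at 86.8%, and Cyp2c68 and Cyp2c40 at 82.8%. Cyp2c67 had lower shares with its row, at 75.2% with Cyp2c68, 74.4% with Cyp2c69 and 63.2% with Cyp2c40. The word CAAAGTCCA, which these genes share, lies at -125 in Cyp2c67 but at -77 in Cyp2c68, -75 in Cyp2c69 and -45 in Cyp2c40. The windows thus cover shifted stretches, and bases outside the common stretch lower the share. These shares therefore do not rank how alike the sequences of the minus-strand genes are. Between the minus-strand genes and Cyp2c65 or Cyp2c66, and between Cyp2c55 and the rest, identity was 52.8 to 57.2%, close to the 43.2 to 56.8% (median 50.8%) between these 7 windows and those of 50 members outside Cyp2c. The HNF4 letters occurred at position -116 from the start site in Cyp2c65, -125 in Cyp2c67, -77 in Cyp2c68, -45 in Cyp2c40 and -75 in Cyp2c69, so they occurred on both sides of the split. Cyp2c66 holds a word that differs from that of Cyp2c65 by A9C (position 1 is the 5′ end of the match) at -104, and Cyp2c55 holds no match. The TATAAA letters lay at -29 in Cyp2c55, -162 in Cyp2c65, -150 in Cyp2c66 and -40 in Cyp2c67. Of the 75 members, 59 had a window. The HNF4 letters were in 20 of them (33.9%), against 5.49% of 32851 windows of all genes. TATAAA was in 22 (37.3%, against 12.4%), the CDX letters TTTATNG in 7 (11.9%, against 9.81%) and the aryl hydrocarbon receptor core GCGTG in 14 (23.7%, against 28.2%). The HOX13 letters CTCGTAAA (0.11% of all windows) were in none. Windows of related members can be near copies (92.8% for Cyp2c68 and Cyp2c69), so their matches are not independent of each other. A match of letters describes the sequence and does not show that a factor binds there.

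Cyp2c55 stood at 535 to 1410 FPKM (median 904) in the low set and at 10.6 to 223 FPKM (median 137) in the high set, a 6.6-fold difference of medians. Cyp2c65, a close relative that also metabolises arachidonic acid, stood at 35.8 to 153 FPKM (median 134) against 0.929 to 11.5 FPKM (median 2.15), a 62.5-fold difference of medians. Cyp2c66 stood at 1.24 to 9.96 FPKM in the low set and was listed at 0 in 10 of the 12 libraries of the high set, where it reached at most 0.340 FPKM. For all of these genes the sets did not overlap. In the other direction, Cyp2c68 stood at 0.357 to 12.2 FPKM (median 4.03) in the low set and 25.8 to 78.5 FPKM (median 45.0) in the high set, 11.2-fold higher there by median. Cyp2c67 (0.0566 to 0.939 against 1.95 to 5.74 FPKM) and Cyp2c40 (0.0670 to 1.17 against 1.41 to 4.67 FPKM) had the same pattern. Cyp2c69, at the end of the row, was the one gene of the 7 whose sets overlapped on FPKM. On CPM, the sets of Cyp2c40 overlapped too. CPM scales counts by library size and by a TMM normalisation factor, which ran from 0.813 to 1.15 over the libraries. Reads of the minus-strand genes are hard to tell apart: 41.7% of the 100-base words of Cyp2c40 transcripts also occur in transcripts of other genes (GENCODE M21), 36.3% of those of Cyp2c69, 23.7% of Cyp2c67 and 19.8% of Cyp2c68. The share was 9.34% for Cyp2c66, 7.82% for Cyp2c65 and 0 for Cyp2c55, so levels within the minus-strand row are uncertain.

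Across all tested members the sets did not overlap for 11 of 49 (22.4%), against 2.72% of all 20855 genes tested. Of these, 6 were higher in the low set (12.2%, against 1.1% of all genes) and 5 were higher in the high set (10.2%, against 1.63%). On CPM the count was again 11 (22.4%, against 2.88% of all genes), with Cyp2j6 in and Cyp2c40 out, 7 higher in the low set and 4 in the high set. Cyp2c66 and Cyp3a44 met the filter with 10 and 6 libraries of the high set listed at 0, so the count is a description. Cyp2c67, Cyp2c40, Cyp2a12, Cyp3a11, Cyp3a25 and Cyp4a32 are named after their values were seen. Cyp4b1, a fatty acid hydroxylase known from lung, stood at 6.90 to 52.5 FPKM (median 25.5) in the low set and 0.314 to 0.890 FPKM (median 0.531) in the high set. Cyp2d26 stood at 10.2 to 84.0 FPKM against 1.45 to 8.18 FPKM. Cyp3a44, of the drug-metabolising family 3a, stood at 4.03 to 21.2 FPKM against 0 to 3.16 FPKM. Its neighbours Cyp3a11 and Cyp3a25 on chromosome 5, and Cyp4a32 beside Cyp4b1 on chromosome 4, were too low to be tested and were also higher in the low set without overlap. The shares above cover tested genes only, so these untested genes have no share to be set against. Higher in the high set were Cyp2f2 (0.179 to 6.63 FPKM low, 8.80 to 32.2 FPKM high) and Cyp2a12, of a subfamily that hydroxylates steroids, which was very low in both (0 to 0.0325 FPKM and 0.0334 to 0.201 FPKM). Markers of other cell types were summed in the same sets. Summed pancreatic acinar markers were 5.94 to 10.9 FPKM in the low set and 34.1 to 16400 FPKM in the high set, and adipocyte markers 123 to 792 and 31.6 to 332 FPKM. Liver markers were 1.67 to 2.72 FPKM in the low set and 6.33 to 37.1 FPKM in the high set, urogenital markers 0.318 to 8.71 and 14.1 to 347 FPKM, macrophage markers 87.6 to 337 and 227 to 977 FPKM, and small intestine markers 1.84 to 13.7 and 1.24 to 8.92 FPKM. The acinar, liver and urogenital sums did not overlap between the sets, and the adipocyte, macrophage and small intestine sums did. Of the listed genes, 3 of 10 acinar, 5 of 8 liver and 1 of 6 urogenital markers passed the count filter. Only 4 of the 6 urogenital genes were listed in the deposited data. These sums may thus rest on few genes and do not show that such tissue was present. The part of these markers, and of the colonocyte markers given above, in the P450 differences was not tested.

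**Figure D3:**
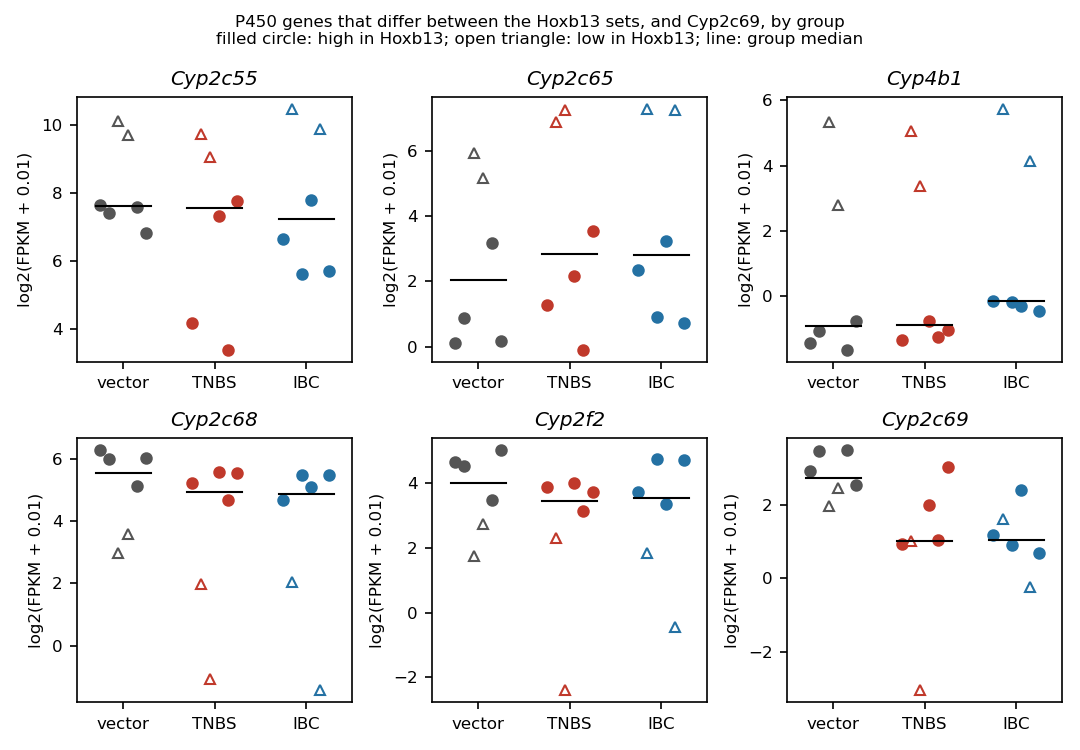
Level of 6 members in each library by group, as log2(FPKM + 0.01), with filled circles for the 12 libraries high in Hoxb13, open triangles for the 6 low ones and a line at the group median. For Cyp2c55, Cyp2c65 and Cyp4b1 the triangles lie above every circle, and for Cyp2c68 and Cyp2f2 below every circle. For Cyp2c69 they overlap with the groups pooled, but in the vector group every triangle lies below every circle.

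edgeR called no P450 gene between TNBS and vector, and DESeq2 called Cyp21a1, described with the steroid genes. In the direction of the estimates, 19 of 49 tested members were higher with TNBS (38.8%, against 48.9% of all genes), with a median log2 fold change of -0.15 against -0.01 for all genes. The Cyp2d genes (6 of 7 lower, median log2 -0.33), the Cyp2c genes (6 of 9 lower, -0.59) and the foreign-compound genes of families 2a to 2s (4 of 5 lower, -0.67) leaned down, and family 4 did not (5 of 8 lower, -0.02). By edgeR 0 members had an adjusted p under 0.05, against 0.0192% of all genes called (4 of 20855). An unadjusted p under 0.05 was seen for 8 members (16.3%, against 17.8% of all genes), 1 higher and 7 lower (14.3%, against 7.32% of all genes). No member had groups that did not overlap, against 0.969% of all genes. The lower count of 7 rested on single libraries: it was 2 without vector 1 or TNBS 1, 3 without TNBS 4, and 4 without vector 3, vector 6 or TNBS 5. The median ran from -0.34 (without TNBS 2) to -0.01 (without vector 1 or TNBS 4), and 25 of 50 members were higher without TNBS 4. Without TNBS 6 the calls over all genes rose from 4 to 323 of 21122, and 0 of 50 tested members were among them.

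Cyp1a1, which the aryl hydrocarbon receptor induces, stood at 0.0927 to 0.607 FPKM (median 0.212) in the vector group and 0 to 0.278 FPKM (median 0.0311) with TNBS, from at most 139 counts in a library. Most TNBS libraries lay below most vector libraries, and 5 of 6 lay below the vector median (log2 -1.89 ± 0.86 SE, edgeR adjusted p = 0.264). Cyp2u1, a fatty acid hydroxylase, stood at 0.212 to 0.321 FPKM (median 0.272) and 0.0732 to 0.271 FPKM (median 0.164), with all 6 TNBS libraries below the vector median (log2 -0.66 ± 0.26, edgeR adjusted p = 0.223). Cyp4x1, an orphan P450 of unsettled substrate, stood at 0.203 to 0.339 FPKM (median 0.270) and 0.0361 to 0.210 FPKM (median 0.135). All 6 TNBS libraries lay below the vector median, and the ranges overlapped narrowly (log2 -1.0 ± 0.37, edgeR adjusted p = 0.204). Cyp2s1, found in epithelia outside the liver, had medians of 12.4 and 8.63 FPKM (log2 -0.66 ± 0.29, edgeR adjusted p = 0.256). Cyp2d22, the mouse gene often set beside human CYP2D6, had medians of 8.06 and 4.41 FPKM, with all 6 TNBS libraries below the vector median (log2 -0.63 ± 0.28, edgeR adjusted p = 0.258). Cyp2c69 had medians of 6.69 and 2.03 FPKM (log2 -1.30 ± 0.59, edgeR adjusted p = 0.264). The most abundant gene, Cyp2c55, averaged 437 ± 424 FPKM (SD, n = 6) in the vector group and 300 ± 334 FPKM with TNBS, a difference well within the spread (log2 -0.59 ± 1.01, edgeR adjusted p = 0.767). Summed neutrophil markers were 3.01 to 156 FPKM in the vector group and 86.4 to 829 FPKM with TNBS, and smooth muscle markers 1120 to 2500 and 712 to 1710 FPKM. Their part in these values was not tested.

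Among the 12 libraries high in Hoxb13 the median log2 fold change of the members between TNBS and vector was -0.48, against 0.02 for all genes. edgeR on these libraries again called 0 members (0.0% of 21030 genes were called), with 15 of 49 members at an unadjusted p under 0.05 (30.6%, against 12.2% of all genes) and 13 of them lower (against 5.14% of all genes). In the 6 libraries low in Hoxb13, 2 per group, the median was -0.20 against -0.06 for all genes, with 22 members higher and 27 lower. There 0 members were called (0.0% of all genes) and 9 had an unadjusted p under 0.05 (18.4%, against 13.4% of all genes). Of these, 7 were higher, and 1333 of all 21182 genes were higher at that p. The Cyp2d genes were 7 of 7 lower in the high set (median log2 -0.75) and 4 of 6 higher in the low set (0.21). Cyp26b1 had a log2 fold change of -1.27 ± 0.43 in the high set and 2.84 ± 1.01 in the low set (edgeR adjusted p = 0.285 and 0.353), and the difference between the sets was not tested. Of 43 members tested in both sets, 15 had opposite signs, a count given without the share of all genes. In the high set all 8 adipocyte markers were lower with TNBS (median log2 -2.44, 5 at an unadjusted p under 0.05), as were all 8 smooth muscle markers (-0.56), and in the low set 6 of 8 adipocyte markers were higher. Their part in the P450 values was not tested. Cyp1a1 stood at 0.0927 to 0.414 FPKM in vector, 0 to 0.0416 FPKM in TNBS and 0.0696 to 0.190 FPKM in IBC libraries of this set. Cyp2u1 stood at 0.212 to 0.321, 0.0732 to 0.164 and 0.244 to 0.296 FPKM in the same order. For both genes every TNBS library of this set lay below every vector library, 2 of 49 members (4.08%) against 3.24% of all genes. With a score of Hox genes as a covariate and TNBS 6 left out, a setting chosen after seeing the data, edgeR called Cyp1a1 (log2 -2.25, adjusted p = 0.0469) and Cyp21a1 (adjusted p = 0.0154), where 6.07% of all genes were called. Over all alternatives the adjusted p of Cyp1a1 in this comparison ran from 0.0469 to 0.513.

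Between IBC and TNBS no member was called either, and most estimates pointed up. Of 49 members, 40 were higher with IBC (81.6%, against 50.3% of all genes), with a median log2 fold change of 0.25 against 0.00. Without IBC 2 these were 31 of 50 and 0.15, and without TNBS 2 they were 40 of 50 and 0.44. All 8 tested family 4 genes (median 0.24), 6 of 7 Cyp2d genes (0.50) and all 4 bile acid and cholesterol genes (0.30) were on the higher side. These are directions of estimates that did not pass the test. edgeR called 0 members and 0 of all genes (0.0%), and 1 member, Cyp4x1, had an unadjusted p under 0.05 (2.04%, against 3.93% of all genes). No member had groups that did not overlap, against 0.0815% of all genes. This comparison shares its TNBS libraries with the one against vector, so a low TNBS value enters both.

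Cyp4x1 stood at 0.0853 to 0.423 FPKM (median 0.306) with IBC and 0.0361 to 0.210 FPKM with TNBS, with 5 of 6 IBC libraries above the TNBS median (log2 0.88 ± 0.37 SE, edgeR adjusted p = 0.925). Cyp4f16, a fatty acid hydroxylase gene, was steady within groups, with medians of 15.6 FPKM with IBC and 12.9 FPKM with TNBS, and all 6 IBC libraries lay above the TNBS median (log2 0.23 ± 0.12, edgeR adjusted p = 0.925). Cyp2d22 (log2 0.50 ± 0.28), Cyp2u1 (0.46 ± 0.26), Cyp1b1 (0.86 ± 0.53) and Cyp1a1 (1.05 ± 0.84) also had all 6 IBC libraries above the TNBS median. Cyp2ab1 was listed at 0 in 4 of 6 TNBS libraries and reached at most 24 counts in any library. Among the 12 libraries high in Hoxb13, edgeR called 0 members (0.0% of all genes were called) and 7 had an unadjusted p under 0.05, all higher with IBC (10.9% of all genes in either direction, 5.23% higher). In that set 7 members (14.3%, against 4.96% of all genes) had every IBC library above every TNBS library: Cyp1a1, Cyp1b1, Cyp26b1, Cyp2e1, Cyp2u1, Cyp4b1 and Cyp4f18. For Cyp1b1, another target of the aryl hydrocarbon receptor, the estimate there was log2 1.76 ± 0.48 (edgeR adjusted p = 0.401). In the 6 libraries low in Hoxb13, 5 of these 7 genes had a negative estimate: Cyp26b1 (log2 -0.83), Cyp2u1 (-0.21), Cyp4f18 (-0.19), Cyp2e1 (-0.17) and Cyp1b1 (-0.13). Of 43 members tested in both sets, 24 had opposite signs, a count given without the share of all genes. In the low set 0 members were called (0.0% of all genes) and 1 had an unadjusted p under 0.05 (2.04%, against 1.98% of all genes). In the high set all 8 adipocyte markers were higher with IBC (median log2 3.43, 7 at an unadjusted p under 0.05), as were all 7 fibroblast markers (0.62, 3 at that p), and in the low set 7 of 8 adipocyte markers were lower. Their part in the P450 values was not tested.

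Between IBC and vector 26 of 49 members were higher (53.1%, against 49.1% of all genes), with a median log2 fold change of 0.06, which ran from -0.08 (without vector 5 or IBC 2) to 0.21 (without vector 1) and so had no settled sign. edgeR called 0 members and 0.0% of all genes, with 5 members at an unadjusted p under 0.05 (against 8.53% of all genes) and no member whose groups did not overlap (against 1.3%). Cyp2c69 stood at 3.96 to 11.3 FPKM (median 6.69) in the vector group and 0.841 to 5.28 FPKM (median 2.07) with IBC. All 6 IBC libraries lay below the vector median (log2 -1.68 ± 0.59 SE, edgeR adjusted p = 0.401). In the 12 libraries high in Hoxb13 it stood at 5.82 to 11.3 FPKM in vector, 1.91 to 8.19 in TNBS and 1.62 to 5.28 FPKM in IBC, and in the 6 low ones at 3.96 to 5.56, 0.110 to 2.00 and 0.841 to 3.04 FPKM. IBC lay below vector without overlap in both sets. Cyp2c69 and Cyp2d26 were the 2 members lower without overlap in the high set (4.08%, against 2.05% of all genes), and 8 members were in the low set (16.3%, against 24.0% of all genes).

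Cyp4f18, which oxidises leukotrienes in neutrophils, had medians of 0.549 FPKM in vector and 2.23 FPKM in IBC, with 5 of 6 IBC libraries above the vector median (log2 1.22 ± 0.57, edgeR adjusted p = 0.58). Cyp1b1 had medians of 0.0745 and 0.247 FPKM (log2 1.18 ± 0.53, edgeR adjusted p = 0.56). Cyp7b1, an oxysterol hydroxylase, had medians of 0.416 and 0.840 FPKM, with all 6 IBC libraries above the vector median (log2 0.84 ± 0.44, edgeR adjusted p = 0.656). Cyp4f40 had medians of 16.5 and 22.2 FPKM, again with all 6 above (log2 0.40 ± 0.20, edgeR adjusted p = 0.645). In the 12 libraries high in Hoxb13, 5 members had IBC above vector without overlap (10.2%, against 11.3% of all genes): Cyp21a1, Cyp4b1, Cyp4f18, Cyp4f40 and Cyp7b1. edgeR called 0 members there, against 0.143% of all genes, with 11 members at an unadjusted p under 0.05 (22.4%, against 10.1% of all genes). In the low set it called 0 members (0.0% of all genes), with 7 at an unadjusted p under 0.05 (14.3%, against 14.5% of all genes), and Cyp7b1 had a log2 estimate of -0.35 there. Of 43 members tested in both sets, 19 had opposite signs, a count given without the share of all genes. With libraries weighted by their quality, limma called Cyp2c69 (log2 -1.84, adjusted p = 0.0383) and Cyp7b1 (log2 1.29, adjusted p = 0.0317), where 2.92% of all genes were called. Over all alternatives the adjusted p ran from 0.0383 to 0.662 for Cyp2c69 and from 0.0317 to 0.843 for Cyp7b1. Summed macrophage markers were 87.6 to 455 FPKM in vector and 210 to 744 FPKM in IBC, neutrophil markers 3.01 to 156 and 25.9 to 238 FPKM, and fibroblast markers 135 to 231 and 100 to 525 FPKM. Their part in these values was not tested.

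**Figure D4:**
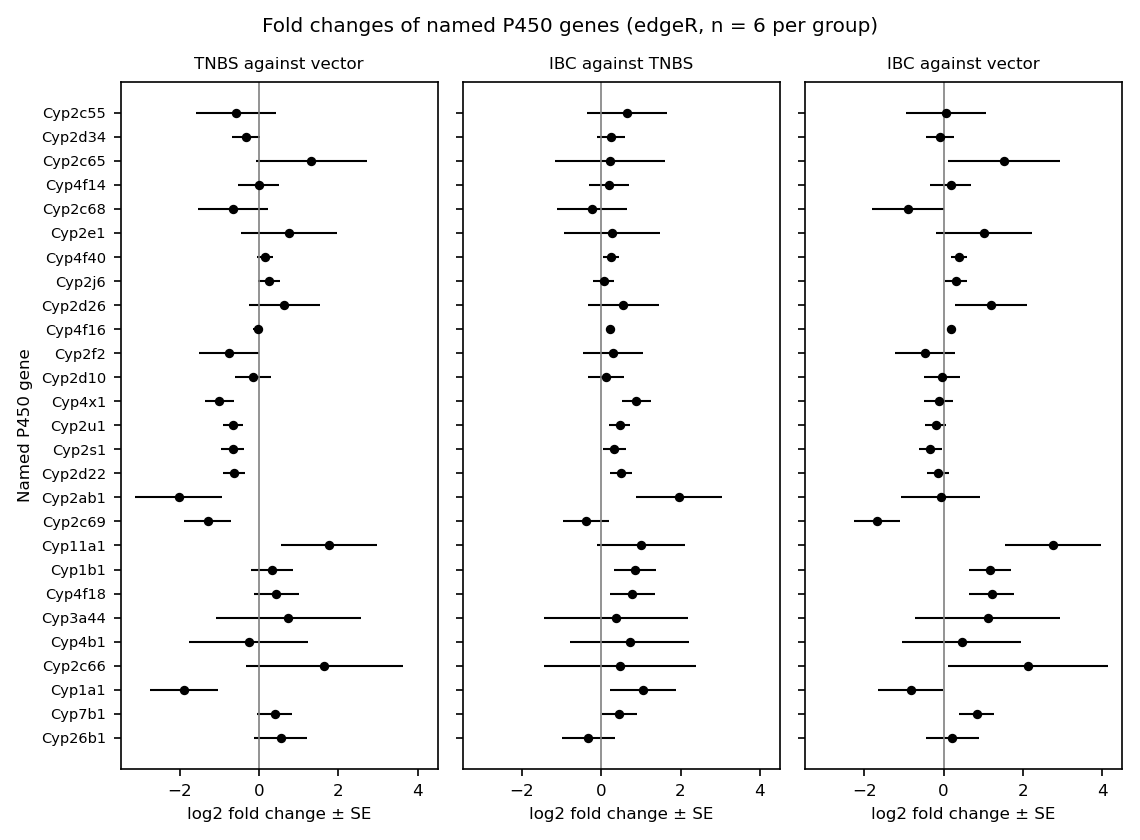
edgeR log2 fold change with its standard error (bars) for 27 named members in the 3 comparisons, sharing 1 axis. Cyp21a1, at 0 in every vector library, is left out. No member passed an adjusted p of 0.05.

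Cyp21a1, the steroid hydroxylase gene of the adrenal cortex, was listed at 0 in all 6 vector libraries and above 0 in most of the others. With TNBS it stood at 9.18, 0.0562, 0, 0.0248, 1.13 and 0 FPKM in libraries 1 to 6 (1327 counts in the first), and with IBC at 2.62, 0, 1.81, 0.666, 0.0566 and 1.98 FPKM. It was thus seen in 4 of 6 TNBS and 5 of 6 IBC libraries, over a wide range. Because the vector group was at 0, no fold change is given. edgeR gave an adjusted p of 0.14 for TNBS and 0.314 for IBC against vector. DESeq2 gave 6.14e-23 and 1.22e-21, and Cyp21a1 was the 1 member DESeq2 called in each of these comparisons (against 1.56% and 0.559% of all genes). Over all alternatives its adjusted p ran from 6.14e-23 to 0.471 for TNBS and from 1.22e-21 to 0.536 for IBC against vector. DESeq2 called no member between IBC and TNBS, and limma on log2 FPKM called no member in any comparison.

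In the table Cyp21a1 lies on chromosome 17 (35020322 to 35023535, minus strand), with the complement genes C4a (35028069 to 35042440) and C4b (34947354 to 34962856) and the pseudogene Cyp21a2-ps (34938787 to 34941226) near it, genes examined after the values of Cyp21a1 were seen. C4a lies nearer to Cyp21a1 than C4b does, but only C4b is set beside it here. C4b stood at 3.85 to 8.60 FPKM in vector, 3.91 to 13.4 in TNBS and 4.10 to 21.4 FPKM in IBC. The library with the highest Cyp21a1 with TNBS, TNBS 1, also had the highest C4b of that group (13.4 FPKM), and IBC 1, with 2.62 FPKM of Cyp21a1, had 17.8 FPKM of C4b. IBC 6 had 1.98 and 21.4 FPKM of the pair, whereas TNBS 5, with 1.13 FPKM of Cyp21a1, had the lowest C4b of its group (3.91 FPKM). Other libraries with Cyp21a1 above 0, among them IBC 3 and IBC 4, are not compared here. Whether the pair varies together was not tested. Of the 100-base words of Cyp21a1, 5.87% also occur in Cyp21a2-ps. Markers of the adrenal cortex stayed low: Nr5a1, which defines steroid-making cells, was at 0 in 17 of 18 libraries, and the 5 markers summed to 1.69 to 4.77 FPKM in vector, 1.10 to 2.77 in TNBS and 1.44 to 6.22 FPKM in IBC. Cyp11a1, the first enzyme of steroid synthesis, stayed at or under 0.252 FPKM in every library (IBC against vector log2 2.76 ± 1.21, edgeR adjusted p = 0.545). Cyp11b1, Cyp11b2 and Cyp17a1 were above 0 in 3 libraries or fewer. Hsd11b1, which regenerates glucocorticoid, had medians of 1.48, 4.30 and 3.33 FPKM in vector, TNBS and IBC (TNBS against vector log2 1.60, edgeR adjusted p = 0.123).

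**Figure D5:**
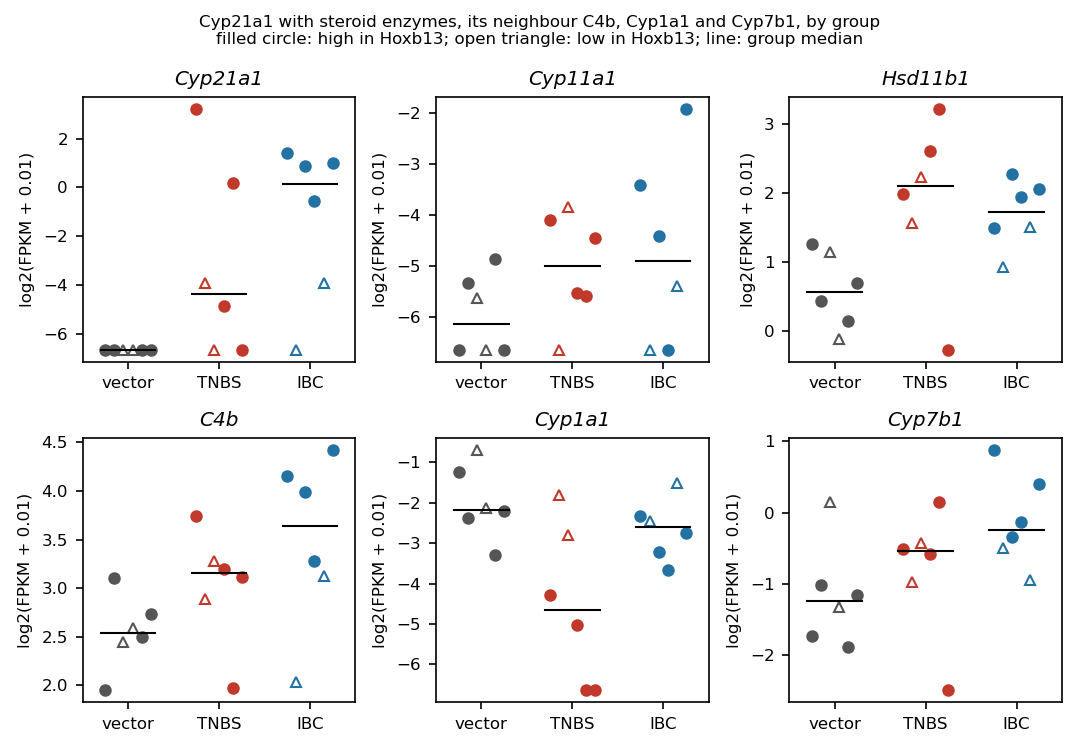
Level of Cyp21a1, Cyp11a1, Hsd11b1, C4b, Cyp1a1 and Cyp7b1 in each library by group, as log2(FPKM + 0.01), with filled circles for libraries high in Hoxb13, open triangles for low ones and a line at the group median. All 6 vector libraries sit at the floor for Cyp21a1, while 9.18 FPKM is reached in TNBS 1.

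Among the genes for sterols, retinoic acid and vitamin D, edgeR called none, and Cyp7b1 and Cyp26b1 are also described above. Cyp27a1, which oxidises the sterol side chain, had medians of 10.7, 7.48 and 12.1 FPKM in vector, TNBS and IBC, and the oxysterol hydroxylase Cyp39a1 had 5.76, 4.64 and 5.66 FPKM, both chosen after their values were seen. Cyp26b1, which clears retinoic acid, stood at 0.0298 to 0.542, 0.0705 to 1.07 and 0.158 to 0.534 FPKM, and the groups overlapped. Cyp24a1, which inactivates vitamin D, was above 0 in 1 library, IBC 2 (0.0151 FPKM). Cyp2e1 varied widely within groups, at 1.30 to 42.5, 0.222 to 88.2 and 4.68 to 134 FPKM. The fat cell marker Adipoq varied over as wide a range, from 2.00 to 31.4 FPKM in vector, 0.0451 to 68.0 in TNBS and 6.12 to 57.7 FPKM in IBC. Adipoq was lowest in TNBS 4, as was Cyp2e1. The sum of all 8 adipocyte markers was instead lowest in TNBS 5 (31.6 FPKM), against 50.3 FPKM in TNBS 4. The part of these markers in the Cyp2e1 values was not tested.

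Genes that serve P450 enzymes were taken from lists, and no gene of any of them was called by edgeR in any of the 3 comparisons. Por had medians of 18.2, 23.8 and 26.6 FPKM in vector, TNBS and IBC (log2 0.29 for TNBS against vector, edgeR adjusted p = 0.648). Of 10 redox partners 7 were higher with TNBS than vector, and Fdx1 had a log2 fold change of 0.32. Of 7 genes of the aryl hydrocarbon receptor pathway 6 were lower with TNBS, the receptor gene Ahr by log2 -0.34. Of 12 tested nuclear receptors and factors 10 were lower with TNBS: Vdr, the vitamin D receptor, had medians of 37.8, 20.7 and 34.0 FPKM (log2 -0.59, edgeR adjusted p = 0.284), Nr5a2, which drives steroid synthesis in gut epithelium, 7.70, 5.31 and 5.69 FPKM (log2 -0.44, edgeR adjusted p = 0.323), and Nr1i2, the pregnane X receptor, 21.0, 19.2 and 20.9 FPKM. Of 10 genes of heme supply and breakdown 6 were higher with TNBS, and the heme oxygenase gene Hmox1 had a log2 fold change of 2.04 (edgeR adjusted p = 0.102). Of 6 steroid synthesis partners 3 were higher, and of 3 P450 genes under other names 2 were higher.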

How the data were processed

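Poly(A) RNA-seq of 18 mouse colon libraries was used, in 3 labelled groups of 6. The authors deposited 1 table with a read count and an FPKM value per gene and library, per the file headers. Reads were trimmed with cutadapt 1.9, per the submitters' processing notes. The sources used here do not name the aligner, the counting tool, the annotation or the build. Among the low counts, multiples of 4 were in excess (19961 values of 4 and 9977 of 3), so 1 fragment may be worth more than 1 count and no limit is set on a count of 0. Whether counting used strand is not stated either, so reads of overlapping genes may not be told apart.

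Counts were tested with edgeR 4.0.16 (R 4.3.3; TMM, filterByExpr, quasi-likelihood test, all libraries in 1 fit, Benjamini-Hochberg over 20855 genes, threshold 0.05, two-sided). FPKM was used for levels. DESeq2 1.42.0 and limma 3.58.1 (on log2 of FPKM plus 0.1 or 1, and with library weights) were alternatives, with other filters, leaving out each library, and the Hoxb13 sets, separated at 10 CPM. The 0.38% largest share of genes with equal counts in any pair of libraries gave no sign of a library deposited more than once. Scripts were tested on simulated data. Promoter windows and transcripts were compared with Biopython 1.88, and figures drawn with matplotlib 3.10.9 under Python 3.11.15 (pandas 2.3.3).

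The members and lists were chosen with earlier results of these data known. Genes were named by rule: the 12 highest by mean FPKM, the 5 smallest edgeR p in each comparison, the 6 largest SDs of log2 CPM, and 9 fixed members (Cyp1a1, Cyp1b1, Cyp2e1, Cyp2c55, Cyp7b1, Cyp11a1, Cyp11b1, Cyp24a1 and Cyp26b1), 30 members in all. Other names were added after their values were seen.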

Additional observations from a re-analysis of the deposited data

Results flagged for a closer look

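In 19 of 86 groups of 6 libraries examined for the named members, 1 library stood far from the other 5. Its gap to the nearest, as a share of the range, exceeded Dixon's critical value. Chance gives this in about 1 in 20 groups drawn from 1 normal distribution. FPKM is skewed, each group mixes the Hoxb13 sets, and a gene above 0 in a single library always exceeds the value. The 19 groups are therefore a description and not an excess over chance. All values are FPKM. Vector 3, named for 3 of these genes, was also the library with 18% of its counts on mitochondrial genes. In the libraries low in Hoxb13, Cyp4b1 stood at 40.6 in vector 3 (others 0.314 to 6.90), 33.4 in TNBS 2 (0.384 to 10.3) and 52.5 in IBC 2 (0.721 to 17.6). Cyp2d26 stood at 18.8 in vector 3 (5.64 to 10.2) and 84.0 in IBC 2 (4.26 to 29.0), Cyp3a44 at 21.2 in IBC 2 (0 to 5.94), Cyp2e1 at 134 in IBC 5 (4.68 to 40.3) and Cyp4f40 at 27.8 in IBC 2 (20.2 to 23.0). Cyp7b1 stood at 1.10 in vector 3 (0.261 to 0.485), Cyp1b1 at 0.295 in TNBS 3 (0.0398 to 0.0942) and Cyp24a1 at 0.0151 in IBC 2, where the others were at 0. Cyp26b1, which clears retinoic acid, had 1 such library in each group: 0.542 in vector 5 (0.0298 to 0.206), 1.07 in TNBS 2 (0.0705 to 0.292) and 0.534 in IBC 5 (0.158 to 0.222). Among the steroid genes, Cyp21a1 stood at 9.18 in TNBS 1 (0 to 1.13), Cyp11a1 at 0.252 in IBC 6 (0 to 0.0839), and Cyp11b1 at 0.0194 in vector 6 (0 to 0.00664) and 0.0164 in TNBS 1, where the others were at 0. Cyp4f16 stood at 20.1 in IBC 3 (15.2 to 15.8).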

How the results depend on the processing

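The count of called members was 0 in each comparison and stayed 0 in 35 of 37 alternatives for TNBS against vector, 37 of 37 for IBC against TNBS and 35 of 37 for IBC against vector. DESeq2 gave 1 for TNBS against vector and 1 for IBC against vector, Cyp21a1 in both. Library weights gave 2 for IBC against vector, and the Hox score as covariate without TNBS replicate 6, chosen after seeing the data, gave 2 for TNBS against vector. Leaving out 1 library at a time without a covariate gave 0 to 0 in each comparison. In the 6 libraries low in Hoxb13, the sign turned for Cyp2u1 between IBC and TNBS (log2 -0.21) and for Cyp7b1 between IBC and vector (log2 -0.35), among the gene results followed through the alternatives. Over all 43 members tested in both Hoxb13 sets, 15, 24 and 19 had opposite signs between the sets for TNBS on vector, IBC on TNBS and IBC on vector. No member was called in either set, so these are signs of estimates that did not pass the test. No share of all genes is given beside these counts, and a difference between the sets was not tested. The labels do not state that replicate numbers pair the libraries. Of 18 same-numbered pairs, 7 had deviations from the group mean that correlated over 0.1 (median -0.0208). Same-numbered libraries often lie in different Hoxb13 sets, which could hide a pairing, so this check cannot decide the question. The replicate block called 0 members in each comparison, with 10, 2 and 3 members at an unadjusted p under 0.05 in turn for TNBS on vector, IBC on TNBS and IBC on vector. With limma on log2(FPKM + 0.1) the median of all genes between IBC and TNBS shifted to 0.11 and that of the members to 0.35. On CPM the count of members without overlap between the Hoxb13 sets was also 11, but Cyp2j6 took the place of Cyp2c40. Genes under 0.1 FPKM rest on few counts, which limits what can be detected for them.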
